A study of Mus musculus with 8 samples.

Results

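The genes described here are 10 genes of Fc receptor and TREM signalling in macrophages, which were chosen by gene symbol from the 18635 genes of the deposited table. They are the Fcγ receptor genes *Fcgr1*, *Fcgr2b*, *Fcgr3* and *Fcgr4*, the TREM genes *Trem1* and *Trem2*, the signalling chains *Fcer1g*, *Tyrobp* and *Hcst*, and the kinase gene *Syk*. RNA was sequenced from 8 samples of tumor-educated macrophages (TEMs), that is, macrophages grown from bone marrow (BMDMs) and then exposed to AE17-TCM for 24 h. AE17-TCM is medium in which cells of the murine mesothelioma line AE17 had grown. All 8 samples came from C57BL/6 littermates of 6 to 8 weeks with floxed *Phgdh* alleles, and all marrow was differentiated for 7 days in L929-conditioned medium before the TCM. In 4 samples (*Phgdh* fl/fl) there was no Cre, and the other 4 (*Phgdh* fl/fl *Cx3cr1*-Cre) carried the Cre recombinase at 1 copy of the *Cx3cr1* locus. The Cre therefore acts in cells that use the *Cx3cr1* promoter, and it occupies an allele of that gene. Neither untreated BMDMs nor a Cre control without floxed *Phgdh* was used here, so that the loss of *Phgdh* and the presence of the Cre allele cannot be told apart.

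Fcγ receptors bind the constant part of IgG and let macrophages take up opsonized particles. The activating receptors signal through the common γ-chain FcRγ, the product of *Fcer1g*, whose cytoplasmic tail holds an immunoreceptor tyrosine-based activation motif (ITAM). FcγRIIB, the product of *Fcgr2b*, is the inhibitory receptor and carries its own inhibitory motif (ITIM), which recruits phosphatases. TREM1 and TREM2 are receptors that signal through DAP12, the product of *Tyrobp*, which also holds an ITAM. Phosphorylated ITAMs recruit the tyrosine kinase SYK, and DAP10, the product of *Hcst*, recruits PI3-kinase instead. In macrophages, TREM2 is known for the sensing of lipids and apolipoproteins, and TREM1 for the amplification of inflammatory responses.

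The motifs that separate these roles can be read in the coding sequences of the GENCODE M21 transcripts (genome build GRCm38, that of mm10). They are shown because the members that differed between the genotypes include an ITAM chain and the ITIM receptor, and the codons of the motif tyrosines are in capitals. Each sequence is given on the coding strand, and the genomic span of both ITAMs includes an intron.
*Fcer1g* ITAM, chr1:171229889-171230072, minus strand: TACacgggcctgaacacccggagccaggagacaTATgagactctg
*Tyrobp* ITAM, chr7:30415670-30417382, plus strand: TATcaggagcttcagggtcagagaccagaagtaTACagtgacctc
*Hcst* YxxM motif, chr7:30417821-30417832, minus strand: TACatcaacatg
*Fcgr2b* ITIM, chr1:170961071-170961088, minus strand: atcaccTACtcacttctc
In a search of the 10 coding sequences, the ITAM pattern was found in *Fcer1g* and *Tyrobp* and in none of the other 8. The ligand-binding chains among the members thus carry no ITAM of their own in these transcripts.

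The deposited value of a gene in a sample, its normalized count, is the number of its reads divided by a size factor of that sample. Between 38219563 and 47027420 reads per sample fell on genes. The targeted gene *Phgdh* had normalized counts of 119.0, 129, 117 and 105 in *Phgdh* fl/fl TEMs and of 32.6, 35.3, 14.2 and 26.3 in *Phgdh* fl/fl *Cx3cr1*-Cre TEMs. *Cx3cr1*, of which an allele is occupied by the Cre, had 1075 ± 94.2 and 660 ± 32.2 (SD, n = 4 each). Both genes were lower in every sample labelled with the Cre than in every sample without it. All 9 macrophage markers listed for this check, among them *Csf1r*, *Adgre1* and *Cd68*, were present, with a summed normalized count of 1040911 to 1131526 in *Phgdh* fl/fl and 1021290 to 1097912 in those with the Cre. Most of that sum came from *Lyz2*, with 673223 to 757941 without and 676392 to 747804 with the Cre. The summed markers of T cells, NK cells, mast cells and basophils, dendritic cells, and fibroblasts and mesothelioma summed to at most 91.5 in each sample, and *Cd3e*, *Ncr1*, *Cpa3* and *Msln* were not in the table. The B cell list summed to 441 to 536 and 379 to 449 and was carried by *Cd79b* and *Ighm*, with *Cd79a* and *Pax5* not in the table. The neutrophil list summed to 3690 to 3845 and 4147 to 4249.5 through the 2 of its 10 genes in the table, *Csf3r* and *S100a8*, both higher with the Cre, while *S100a9*, *Ly6g*, *Mpo* and *Elane* were not in the table.

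All 10 genes passed the filter on low values, a mean normalized count of at least 10. The genotypes were compared with limma on log2(normalized count + 1), and log2 fold changes are those of samples with the Cre over samples without it, with a standard error (SE) and a p-value adjusted over the 13629 genes tested. Of the 10 genes, 2 rose (*Fcgr2b* and *Syk*), 3 fell (*Fcgr1*, *Trem2* and *Tyrobp*) and 5 did not pass an adjusted p of 0.05. Among all genes tested, 41% passed, 20.8% as higher and 20.3% as lower, so that 5 of 10 is near the share of the whole table. The groups did not overlap for the same 5 members, against 36.7% of all genes. In 6 members the mean normalized count reached 10000, a level at which 71% of 731 genes passed. The size of the change sets 2 members apart from the others, since *Fcgr2b* had the 207th highest log2 fold change of 13629 genes and *Fcgr1* the 602nd lowest. The labels do not say whether the samples of a genotype came from separate animals, although the study calls them biologically independent, and p-values measure only the spread between these samples. In bulk RNA, fewer cells of a type and less RNA per cell cannot be told apart.

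**Figure D1:**
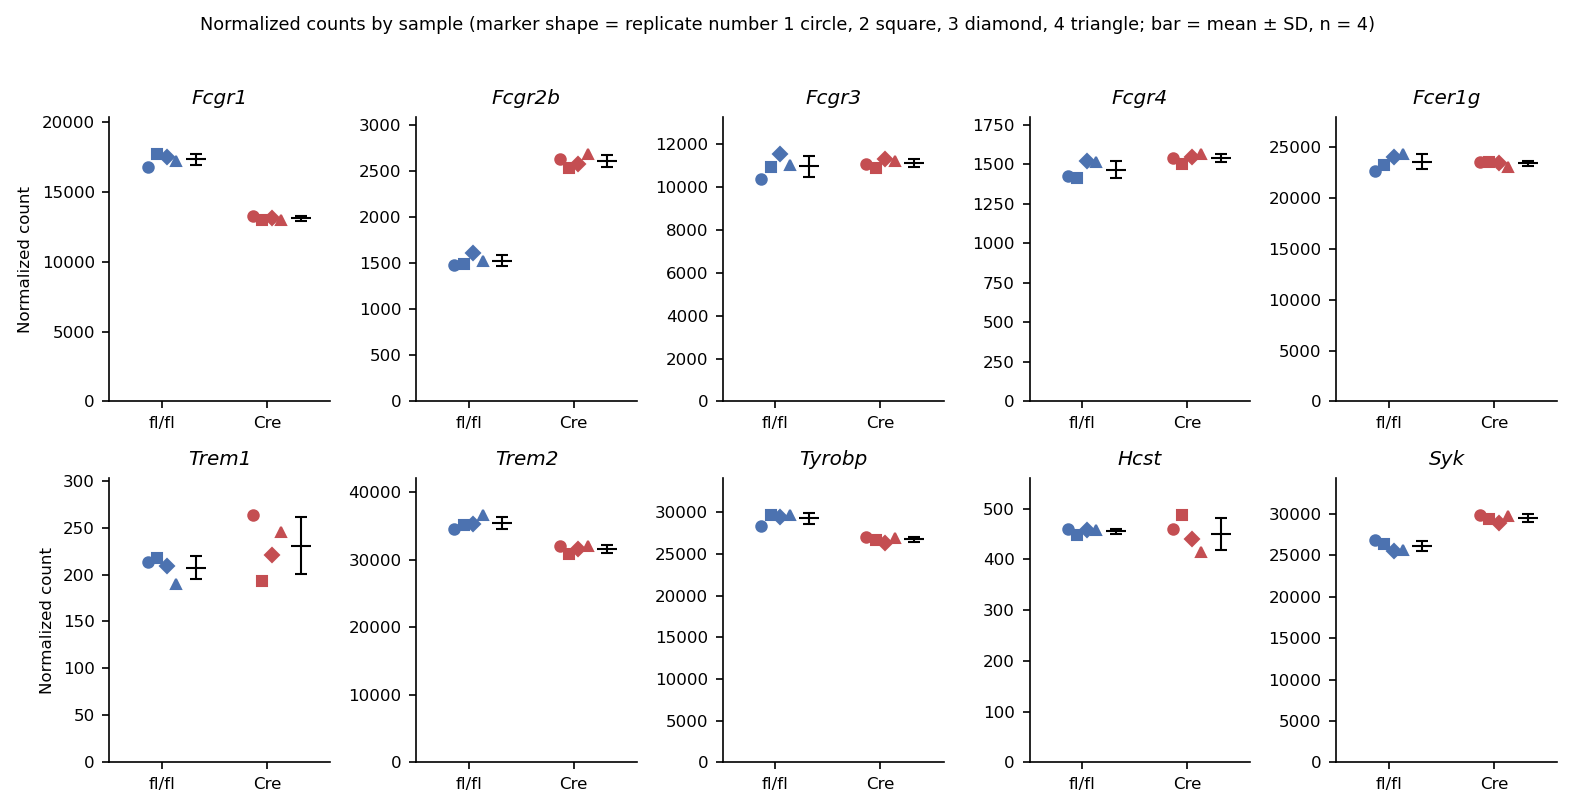
Normalized counts of the 10 genes in each of the 8 samples (vertical axes, linear and from 0, with a scale for each gene) by genotype, where "Cre" stands for *Phgdh* fl/fl *Cx3cr1*-Cre. Each symbol is a sample, with a shape for each replicate number, and the bar is the mean ± SD (n = 4). The genotypes separate for *Fcgr1*, *Fcgr2b*, *Trem2*, *Tyrobp* and *Syk*, and overlap for the other 5 genes.

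*Fcgr1* encodes FcγRI, the high-affinity IgG receptor, and is found at 96282909 to 96293969 of chromosome 3 in mm10, on the minus strand. Its normalized counts were 16826, 17726, 17545 and 17250.0 in *Phgdh* fl/fl TEMs and 13285, 12965, 13174 and 13007 in *Phgdh* fl/fl *Cx3cr1*-Cre TEMs. Every sample with the Cre was lower than every sample without it, and the spread within a genotype was small against the gap. The mean fell by 24.4%, from 17337 ± 393 to 13108 ± 149 (SD, n = 4 each), with a log2 fold change of -0.40 (SE 0.02, limma adjusted p = 7.4e-12). *Fcgr1* lies 2.02 Mb from *Phgdh* on the same chromosome, where both genotypes carry the floxed allele. Within 5 Mb of *Phgdh*, 41 of the 123 genes tested passed the threshold (33.3%), against 41% of all genes. That window includes *Phgdh* and *Fcgr1* themselves, and whether the position of *Fcgr1* bears on its fall was not tested. *Fcgr1* is also on the macrophage marker list, of which 4 of 9 genes fell (*Adgre1*, *Cd14*, *Fcgr1* and *Itgam*), *Mrc1* rose and the other 4 did not pass.

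*Fcgr2b*, the gene of the inhibitory receptor, is found at 170958617 to 170976547 of chromosome 1, also on the minus strand. It had normalized counts of 1484, 1492, 1613 and 1521 in *Phgdh* fl/fl TEMs and of 2628, 2537, 2579 and 2687 in those with the Cre. The lowest sample with the Cre was well above the highest without it. The mean rose 1.71-fold, from 1527 ± 59.0 to 2608 ± 64.8 (SD, n = 4 each), with a log2 fold change of 0.77 (SE 0.03, limma adjusted p = 2.3e-13). This was the largest difference among the 10 genes, and it went against that of *Fcgr1*.

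The genes of the activating receptors FcγRIII and FcγRIV lie beside *Fcgr2b*. *Fcgr3* (chromosome 1, 171051174 to 171064935, minus strand) had normalized counts of 10360, 10951, 11544 and 11051 without the Cre and of 11080, 10899, 11305 and 11209 with it. The samples with the Cre all fell within the range of those without it, and the log2 fold change was 0.020 (95% interval -0.037 to 0.077, limma adjusted p = 0.593). *Fcgr4* (chromosome 1, 171018920 to 171029761, plus strand) had 1424, 1412, 1517 and 1513 without and 1541, 1503, 1545 and 1565 with the Cre. A single sample with the Cre, replicate 2, lay below the highest samples without it, and the log2 fold change of 0.070 (95% interval -0.004 to 0.143) did not pass the threshold (limma adjusted p = 0.122).

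**Figure D2:**
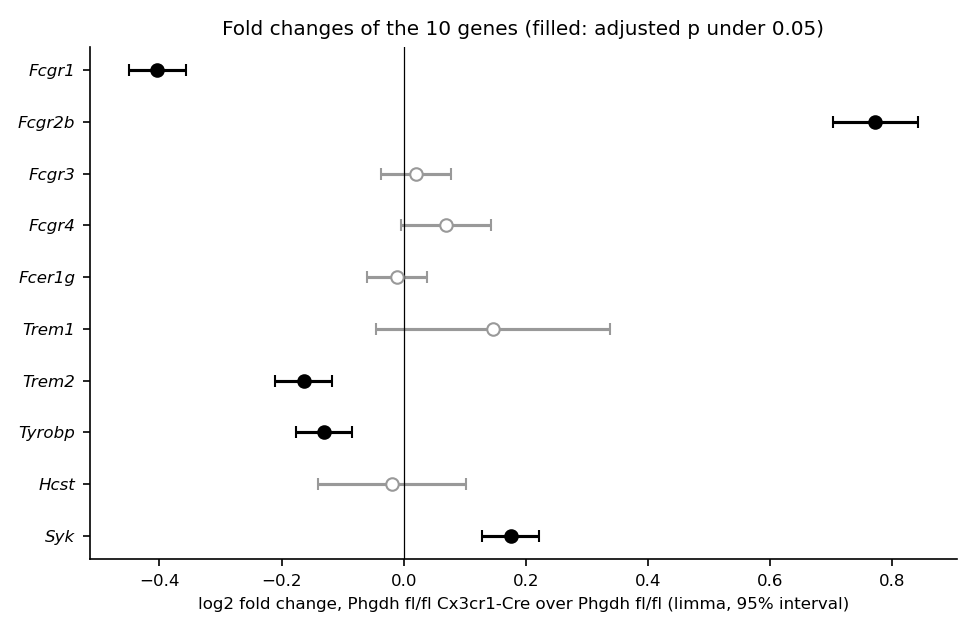
Log2 fold changes of the 10 genes (horizontal axis, *Phgdh* fl/fl *Cx3cr1*-Cre over *Phgdh* fl/fl TEMs) with their 95% intervals from limma, n = 4 per genotype. Filled points passed an adjusted p of 0.05. *Fcgr2b* at 0.77 and *Fcgr1* at -0.40 lie farthest from 0, and the 3 other called genes lie between -0.16 and 0.18.

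Close copies limit how well the counts of *Fcgr2b* and *Fcgr3* can be told apart. Their coding sequences were 89.7% identical over 691 aligned bases, whereas *Fcgr3* and *Fcgr4* were 69.8% identical over 705. The longest identical coding run of the pair is 129 bases, longer than a read of 75 bases, and is shown because a read inside it could come from either gene. It lies across a splice junction on the minus strand, at chr1:170966674-170968081 for *Fcgr2b* and chr1:171054167-171057792 for *Fcgr3*.
*Fcgr2b* and *Fcgr3* shared run: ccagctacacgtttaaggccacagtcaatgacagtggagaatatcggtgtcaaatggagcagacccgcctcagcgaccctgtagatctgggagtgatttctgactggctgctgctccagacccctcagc
Of the 75-base windows of the annotated exons, 94 of *Fcgr3* were also found in *Fcgr2b* (5.42% of 1733), and 156 windows of *Fcgr2b* were found in another gene (2.70% of 5768). The other 8 members shared no such window with any gene. How the counting treated reads of such windows is not given in the sources used here, and the mean of *Fcgr3* differed by 1.34% between the genotypes.

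The promoters of the 2 Fcγ receptor genes that moved in opposite directions are shown next, from RefSeq (GRCm38.p6, windows that end shortly after the start, coding strand), because these 2 genes had the largest differences among the members. They were searched on both strands for TTCNNNGAA, the core of sites bound by STAT factors, which are known to act on *Fcgr1* in response to interferon-γ, and for GAGGAAGT, a site of the myeloid factor PU.1. Of 32851 promoters of this length, 8.30% held the first and 3.20% the second motif, and no member searched held both. Only exact matches were counted, so a site that differs from a motif in a single base was not found.
*Fcgr1* promoter, chr3:96293920-96294219, minus strand: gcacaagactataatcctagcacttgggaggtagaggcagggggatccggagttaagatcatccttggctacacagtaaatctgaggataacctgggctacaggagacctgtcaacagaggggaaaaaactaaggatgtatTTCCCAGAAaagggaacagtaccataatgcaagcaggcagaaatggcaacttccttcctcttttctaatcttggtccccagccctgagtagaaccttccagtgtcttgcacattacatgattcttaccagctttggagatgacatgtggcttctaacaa
*Fcgr2b* promoter, chr1:170976022-170976321, minus strand: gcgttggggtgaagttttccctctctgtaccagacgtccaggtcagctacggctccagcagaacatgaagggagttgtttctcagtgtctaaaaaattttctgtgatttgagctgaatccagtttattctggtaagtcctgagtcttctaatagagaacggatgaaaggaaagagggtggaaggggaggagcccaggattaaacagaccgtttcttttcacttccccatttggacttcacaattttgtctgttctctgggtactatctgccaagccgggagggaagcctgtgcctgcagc
Capitals mark the match of TTCNNNGAA in the *Fcgr1* window, and the *Fcgr2b* window held neither motif. The *Fcgr2b* window lies inside the GENCODE span of the gene given above, since RefSeq places this start downstream of the outermost GENCODE start. *Trem1*, which did not pass the threshold, also held TTCNNNGAA, and *Fcgr4* held GAGGAAGT. The promoters of 9 of the 10 members were in the table, with *Tyrobp* the exception.

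The balance of the Fcγ receptor transcripts was followed within each sample as ratios of normalized counts, which do not depend on the size factors. The ratio of *Fcgr1* to *Fcgr2b* was 11.3, 11.9, 10.9 and 11.3 in *Phgdh* fl/fl TEMs and 5.05, 5.11, 5.11 and 4.84 in those with the Cre. It was lower in each sample with the Cre, with a log2 difference of -1.18 (SE 0.03). The ratio of *Fcgr3* to *Fcgr2b* went from 7.19 ± 0.155 to 4.27 ± 0.0934, and that of *Fcgr4* to *Fcgr2b* from 0.961 ± 0.0243 to 0.590 ± 0.00731 (SD, n = 4 each). For each of these 3 ratios the groups did not overlap, with p = 0.0286 in an exact two-sided permutation test (0.0343 adjusted over the 6 ratios tested), the smallest p that 4 samples against 4 allow. Each activating receptor was thus lower relative to the inhibitory one with the Cre, although *Fcgr3* and *Fcgr4* did not pass the threshold on their own. The 3 ratios share *Fcgr2b*, so that their tests are not separate from its rise.

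On a scale per length, normalized counts per kb of the principal coding transcript, the 4 Fcγ receptor genes can be compared with each other. *Fcgr1* made up 40.7% ± 0.759 of their summed level in *Phgdh* fl/fl TEMs and 33.1% ± 0.348 in *Phgdh* fl/fl *Cx3cr1*-Cre TEMs (SD, n = 4 each). The share of *Fcgr2b* went from 2.62% ± 0.0581 to 4.82% ± 0.0976. The shares of *Fcgr3* (49.5% to 54.0%) and *Fcgr4* (7.10% to 8.02%) were also higher with the Cre, as shares that sum to a whole must shift where a large member falls. With the length of all annotated exons in place of that of the coding transcript, the share of *Fcgr1* went from 46.4% to 38.5% and that of *Fcgr2b* from 1.83% to 3.43%. *Fcgr2b* was the least abundant Fcγ receptor gene in both genotypes by either length.

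**Figure D3:**
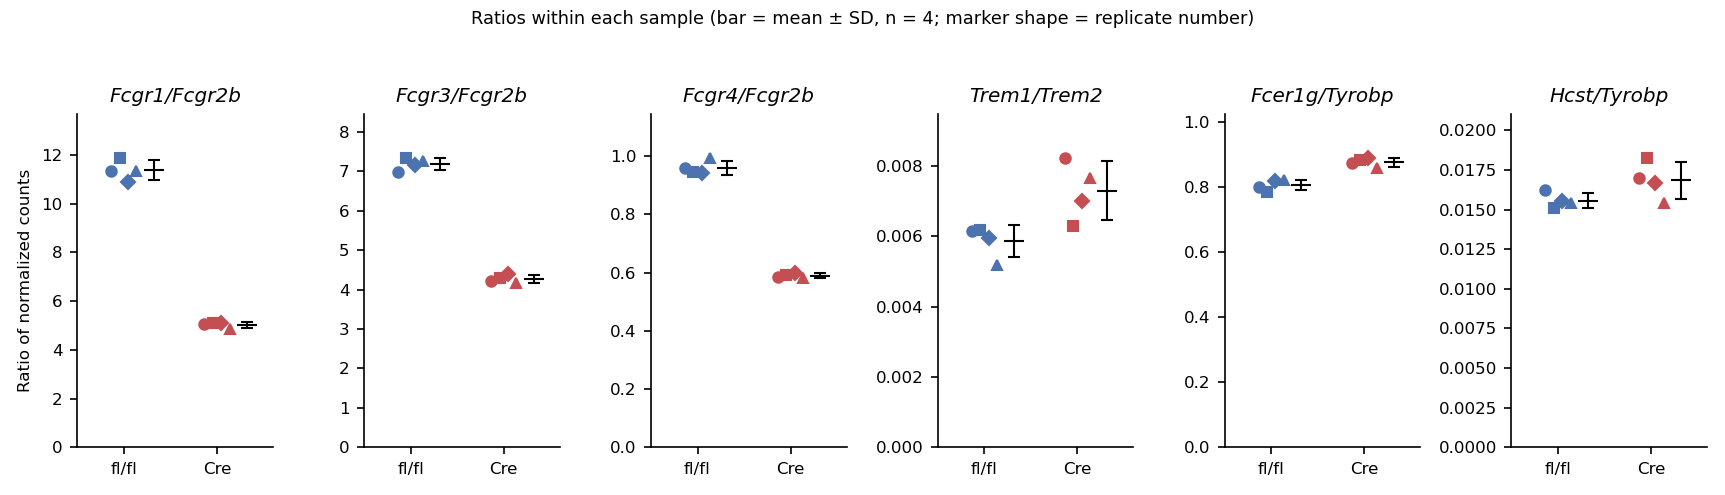
Ratios of normalized counts within each of the 8 samples (vertical axes, linear and from 0, with a scale for each ratio) by genotype, where "Cre" stands for *Phgdh* fl/fl *Cx3cr1*-Cre. Symbols are samples, with a shape for each replicate number, and bars are the mean ± SD (n = 4). The 3 ratios to *Fcgr2b* are lower in each sample with the Cre, the *Fcer1g* to *Tyrobp* ratio is higher, and only the *Hcst* to *Tyrobp* ratio overlaps.

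Of the TREM receptors, *Trem2* (chromosome 17, 48346401 to 48354147, plus strand) was the abundant one. Its normalized counts were 34567, 35169, 35193 and 36577 in *Phgdh* fl/fl TEMs and 31997, 30808, 31486 and 32014 in *Phgdh* fl/fl *Cx3cr1*-Cre TEMs. All samples with the Cre lay below all samples without it. The mean fell by 10.7%, from 35376 ± 851 to 31576 ± 568 (SD, n = 4 each), with a log2 fold change of -0.16 (SE 0.02, limma adjusted p = 5.6e-06). *Trem1* (chromosome 17, 48232768 to 48246924, plus strand) was rare, with 186 to 252 reads per sample. It had 213, 217, 209 and 190 normalized counts without the Cre and 263, 193, 221 and 245 with it, so that the groups overlapped and the samples with the Cre were more scattered. Its log2 fold change of 0.15 (SE 0.09, limma adjusted p = 0.22) had a 95% interval from -0.046 to 0.338.

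The ratio of *Trem1* to *Trem2* did not overlap between the genotypes, but only narrowly. It was 0.00616, 0.00618, 0.00593 and 0.00519 in *Phgdh* fl/fl TEMs and 0.00823, 0.00627, 0.00701 and 0.00766 in *Phgdh* fl/fl *Cx3cr1*-Cre TEMs, a log2 difference of 0.31 (SE 0.10, exact two-sided permutation p = 0.0286, adjusted 0.0343). Replicates 1 and 4 stood apart from 2 and 3 in both genotypes on a second principal component with 13.2% of the variance, for which the labels name no batch. The log2 difference of the ratio was 0.49 in the former and 0.13 in the latter, while the 5 members that passed also passed in each of these subsets. The 4 tested genes between *Trem1* and *Trem2* (*Trem3*, *Treml4*, *Treml2* and *B430306N03Rik*) did not pass the threshold, with log2 fold changes between -0.10 and 0.07.

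The adaptor genes moved unequally. *Tyrobp*, the gene of DAP12 (chromosome 7, 30413760 to 30417585, plus strand), had normalized counts of 28306, 29672, 29455 and 29671 in *Phgdh* fl/fl TEMs and of 27017, 26672, 26361 and 26923 in *Phgdh* fl/fl *Cx3cr1*-Cre TEMs. Replicate 1 was the lowest sample without the Cre, and it still lay above all samples with the Cre. The mean fell by 8.65%, from 29276 ± 655 to 26743 ± 294 (SD, n = 4 each), with a log2 fold change of -0.13 (SE 0.02, limma adjusted p = 5.2e-05). With quantile normalization it was -0.073 and still passed.

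*Fcer1g*, the gene of FcRγ (chromosome 1, 171229572 to 171234365, minus strand), had 22649, 23320, 24071 and 24355 normalized counts without and 23589, 23539, 23465 and 23094 with the Cre. The samples with the Cre lay inside the range of those without it, and the log2 fold change was -0.010 (95% interval -0.059 to 0.039, limma adjusted p = 0.764). The ratio of *Fcer1g* to *Tyrobp* was 0.806 ± 0.0161 in *Phgdh* fl/fl and 0.876 ± 0.0139 in *Phgdh* fl/fl *Cx3cr1*-Cre TEMs (SD, n = 4 each), a log2 difference of 0.12 (SE 0.02) with no overlap (exact two-sided permutation p = 0.0286, adjusted 0.0343). The balance of the ITAM chains whose motifs are printed above was thus shifted towards *Fcer1g* in each sample with the Cre. Since *Fcer1g* itself did not pass the threshold, the test of this ratio is not separate from the fall of *Tyrobp*.

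*Hcst*, the gene of DAP10 (chromosome 7, 30417712 to 30419854, minus strand), ends 126 bases from the end of *Tyrobp* and is read from the opposite strand. It had 459, 448, 458 and 457 normalized counts without and 459, 487, 440 and 414 with the Cre. The samples without the Cre were almost equal and fell inside the wider range of those with it, with a log2 fold change of -0.019 (95% interval -0.140 to 0.101, limma adjusted p = 0.822). The ratio of *Hcst* to *Tyrobp* was 0.0156 ± 0.000474 and 0.0168 ± 0.00118 (SD, n = 4 each) and overlapped (exact two-sided permutation p = 0.114, also after adjustment). *Klrk1*, the gene of NKG2D, the best-known partner of DAP10, had a mean normalized count under the filter and was not tested.

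*Syk*, the gene of the kinase that binds phosphorylated ITAMs (chromosome 13, 52583173 to 52648792, plus strand), went the other way from *Tyrobp*. Its normalized counts were 26830, 26381, 25457 and 25657 in *Phgdh* fl/fl TEMs and 29838, 29374, 28842 and 29753 in *Phgdh* fl/fl *Cx3cr1*-Cre TEMs. All samples with the Cre were higher. The mean rose by 12.9%, from 26081 ± 638 to 29452 ± 454 (SD, n = 4 each), with a log2 fold change of 0.18 (SE 0.02, limma adjusted p = 2.0e-06).

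Per kb of coding transcript, the levels of the members differed widely. In *Phgdh* fl/fl TEMs the level was 51908 ± 1161 normalized counts per kb for *Tyrobp*, 35013 ± 1141 for *Fcer1g* and 32515 ± 782 for *Trem2* (SD, n = 4), and the last 2 overlapped. *Fcgr3* (8149), *Fcgr1* (6696) and *Syk* (4863) formed the middle, followed by *Fcgr4* (1168), *Hcst* (1031), *Fcgr2b* (431) and *Trem1* (69.2), with no overlap between neighbours from *Trem2* downward. With the Cre no neighbours overlapped, and *Syk* (5492 ± 84.6) stood above *Fcgr1* (5063 ± 57.4), whereas it stood below *Fcgr1* without the Cre. The order in the middle depends on the length used. By all annotated exons, which include retained introns of *Trem2*, the level of *Trem2* was 7153 without and 6384 with the Cre, and *Syk* stayed below *Fcgr1* in both genotypes.

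Between *Fcgr2b* and *Fcer1g* on chromosome 1, none of the tested genes that are no Fc receptors rose. Of these, *Pcp4l1* (log2 fold change -0.41), *Sdhc* (-0.16), a subunit of mitochondrial complex II, and *Tomm40l* (-0.13) fell, and *Cfap126* did not pass. Annotated genes that overlap members, among them the antisense gene *Gm38204* at *Fcgr2b*, were not in the table. The strand setting of the counting is not given in the sources used here.

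The 7 lists of other genes of these pathways held 118 genes, of which 94 were tested, 37 rose and 24 fell. The share that passed was 64.9%, against 41% of all genes. Abundant genes passed more often, with 71% of the 731 that averaged 10000 or more. The lists were not matched to all genes for abundance, so the higher share cannot be read as an enrichment of these pathways. The list medians are given beside the median of all genes tested, which was -0.0018 on the log2 scale.

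The list labelled other Fc-binding receptors also holds Fc receptor-like genes, among them *Fcrls* and *Fcrl5*. Of its 13 genes, 5 were tested, 3 fell and none rose, with a median log2 fold change of -0.15. *Fcrls*, an Fc receptor-like gene of macrophages and microglia, fell from 16215 ± 578 to 13891 ± 701 normalized counts (log2 fold change -0.22, limma adjusted p = 6.1e-06, n = 4 each). *Trim21*, the cytosolic antibody receptor, fell with a log2 fold change of -0.15, as did *Fcrl5* with -0.16, whose groups overlapped. *Fcgrt*, the gene of the neonatal Fc receptor that recycles IgG, had a log2 fold change of -0.014 and did not pass. None of the 4 other TREM family genes tested passed, and their median was 0.061.

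Most of the tested receptors that pair with DAP12, DAP10 or FcRγ rose. Of 17 tested among 24, 11 rose and 1 fell, with a median of 0.15, where 20.8% of all genes rose and 20.3% fell. Among the 11, the groups overlapped for *Sirpb1a*, *Sirpb1c* and *Pilrb2*. *Clec4e*, the gene of Mincle, which binds microbial glycolipids and signals through FcRγ, rose from 4554 ± 216 to 8662 ± 810 normalized counts (log2 fold change 0.92, limma adjusted p = 2.1e-12, n = 4 each). *Pira2*, an activating paired Ig-like receptor, rose with 0.61, *Cd200r4* with 0.60, and *Clec4n*, the gene of Dectin-2, with 0.55. *Cd300lb* was the gene that fell, by 0.062 on the log2 scale. *Clec4d*, which forms a complex with Mincle, had 69175 and 70480.2 normalized counts and did not pass. The paired receptors of the *Pira*, *Pilrb*, *Sirpb1* and *Cd200r* families have close copies, so that their counts are uncertain where reads could be split. Most of the 11 that rose belong to these families, namely *Pira2*, *Pilrb2*, *Sirpb1a*, *Sirpb1b*, *Sirpb1c* and *Cd200r4*. Windows shared with other genes were counted only for the members, not for these receptors.

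**Figure D4:**
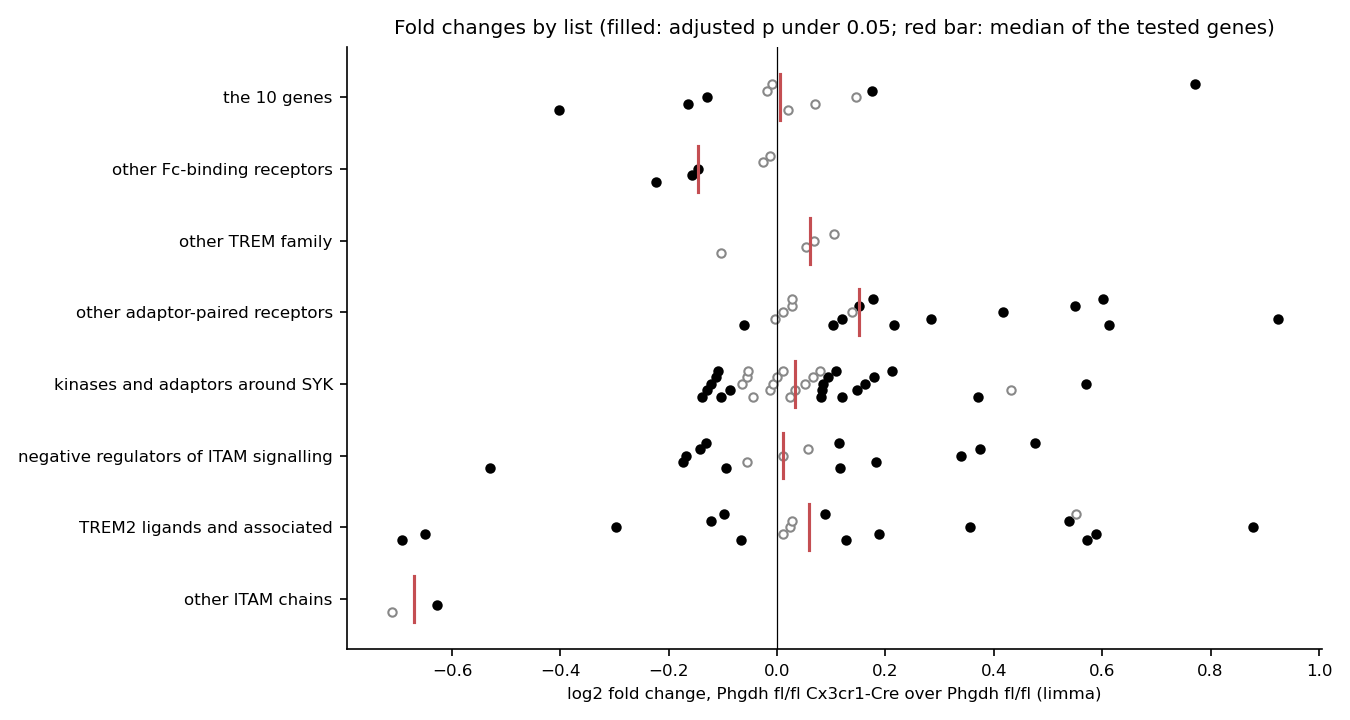
Log2 fold changes (horizontal axis, *Phgdh* fl/fl *Cx3cr1*-Cre over *Phgdh* fl/fl TEMs, limma) of the tested genes of each list, a point per gene, with the 10 genes in the top row. Filled points passed an adjusted p of 0.05, the red bar is the median of the tested genes, and the vertical shift within a row only separates the points. The receptors that pair with the adaptors lie mostly to the right, with a median of 0.15, while the kinases and the negative regulators lie on both sides of 0.

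The kinases and adaptors around SYK moved in both directions. Of 33 tested among 35, 12 rose and 7 fell, with a median of 0.033. Among the called genes whose groups do not overlap, the highest were *Src*, a kinase that phosphorylates ITAMs, with normalized counts of 370 ± 16.7 and 549 ± 20.7 (log2 fold change 0.57), and *Malt1*, the protease of the CARD9 complex (0.37), both past the threshold (n = 4 each). *Vav1*, an exchange factor for Rac, and *Lyn*, the kinase that phosphorylates both ITAMs and the ITIM, fell with -0.14 and -0.13. *Lyn* had 10800 ± 227 and 9870 ± 168 normalized counts, so that it was far more abundant than *Src*. *Btk*, *Plcg2*, *Vav3* and *Sh3bp2* fell as well, each by less than *Vav1*.

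The negative regulators split evenly, with 6 higher and 6 lower of 15 tested among 17 and a median of 0.011. *Dok2*, an adaptor that restrains signalling of tyrosine kinases, fell from 2569 ± 82.6 to 1778 ± 65.1 normalized counts (log2 fold change -0.53, limma adjusted p = 7.5e-11, n = 4 each). *Ptpn6*, the gene of the phosphatase SHP-1, fell with -0.17. *Inpp5d*, the gene of SHIP1, the phosphatase recruited by the ITIM of FcγRIIB, had 13442 ± 337 and 13973 ± 188 normalized counts and did not pass (log2 fold change 0.056, limma adjusted p = 0.054, n = 4 each). *Sla*, an adaptor that lowers surface receptors, and *Pag1*, the membrane anchor of CSK, rose with 0.48 and 0.37. *Csk* itself fell, with -0.14.

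Of the 18 genes linked to TREM2 as ligands, proteases or associated genes, all were tested, 8 rose and 6 fell, with a median of 0.058. The lowest were *Plin2*, a lipid droplet coat protein, from 41297 ± 1000.2 to 25543 ± 623 (log2 fold change -0.69), and *Apoe*, a lipoprotein that TREM2 binds, from 148761 ± 4919 to 94831 ± 3756 (-0.65), both past the threshold (n = 4 each). The highest were *Itgax*, from 477 ± 26.4 to 880 ± 82.3 (0.88), and *Ms4a4a*, from 215 ± 22.6 to 323 ± 13.4 (0.59). *Lpl*, the lipoprotein lipase, fell with -0.30, while *Gpnmb* and *Fabp5* rose with 0.36 and 0.57, so that genes often listed together with *Trem2* did not all share its direction. The protease genes behind the shedding of TREM2 gave -0.066 for *Adam10*, which fell, and 0.027 for *Adam17*, which did not pass. Of the other ITAM chains, *Cd79b* fell with -0.63, a gene that is also on the B cell marker list, and *Cd247* did not pass at a mean normalized count of 14.5 without and 8.67 with the Cre.

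The calls of the members did not rest on 1 library. With each of the 8 samples left out in turn, the same number of members rose and fell, and the log2 fold change of *Fcgr2b* stayed between 0.76 and 0.80, that of *Fcgr1* between -0.42 and -0.39, that of *Trem2* between -0.17 and -0.15, that of *Tyrobp* between -0.15 and -0.12 and that of *Syk* between 0.16 and 0.19.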

How the data were processed

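RNA of 8 samples of BMDM-derived TEMs was prepared by the authors with a directional library kit and sequenced as single-end reads of 75 bases. The authors mapped the reads to mm10 with TopHat2, counted them per gene with HTSeq 0.6 and used DESeq2. The annotation is not given in the sources used here. The signal the authors deposited for each sample is the count of a gene over the size factor of that sample, although the study speaks of FPKM. Whole reads were recovered for 100% of 144353 values above 0 (tolerance 0.01 read), at 38219563 to 47027420 reads per sample and size factors between 0.889 and 1.09. Columns of the comparison made by the authors (deposited log2 fold change, standard error, Wald score, raw and adjusted p-value) were not used.

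Samples were grouped by genotype as the labels give it. The 10 genes, the other lists and the tests were chosen with earlier results of these data known. The 13629 of 18635 genes whose normalized counts averaged 10 or more were compared on log2(normalized count + 1) with limma 3.58.1 in R 4.3.3 (eBayes with trend, two-sided, Benjamini-Hochberg over all genes), a scale on which changes of rarely read genes come out too small. Ratios were tested by exact two-sided permutation over 70 labelings in Python 3.11.15, with the Benjamini-Hochberg adjustment from scipy 1.17.1. Genes named are the 10 members, of each list the 2 called genes with the highest and the 2 with the lowest log2 fold change among those whose groups do not overlap, genes of the members' loci, and *Phgdh* and *Cx3cr1*. Other list genes, among them *Fcrl5*, *Fcgrt*, *Cd200r4*, *Clec4n*, *Clec4d*, *Btk*, *Plcg2*, *Vav3*, *Sh3bp2*, *Inpp5d*, *Csk*, *Lpl*, *Gpnmb*, *Fabp5*, *Adam10*, *Adam17* and *Cd247*, were named after their values were seen. Positions, transcripts and exon lengths came from GENCODE M21 (18629 genes matched) and promoters from RefSeq. Each pair of samples of a genotype differed by more than sampling noise (chi-square per gene at least 1.80). Alternatives were other pseudocounts, filters, scalings and blocks, edgeR 4.0.16 and DESeq2 1.42.0 on the recovered reads, and leaving out each sample. The fits were tested on simulated counts. Counting error alone is smallest for the abundant members and largest for *Trem1*. A few genes of the lists and loci are not reported here on their own.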

Additional observations from a re-analysis of the deposited data

Results flagged for a closer look

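In 3 of 72 sets of 4 samples, a sample lay far from the other 3 (a gap beyond Dixon's critical value for 4 samples), and chance gives about 1 in 20. *Tyrobp* had a normalized count of 28306 in *Phgdh* fl/fl replicate 1, against 29455 to 29672 in the others. *Ptpn6* had 17505 in *Phgdh* fl/fl *Cx3cr1*-Cre replicate 4, against 17856 to 17923. *Plin2* had 24618 in *Phgdh* fl/fl *Cx3cr1*-Cre replicate 2, against 25781 to 25981. In each case the sample still lay on its own genotype's side of all samples of the other genotype.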

How the results depend on the processing

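Of 380 values recomputed under the alternatives, 364 kept their direction and their side of the threshold or stayed close to the reported value. For the 6 ratios, the value with the replicate block equals the reported one by design and counts among the 364. The log2 fold changes of members also equal the reported ones by design with another filter on normalized counts, eBayes without trend or a block. There only their adjusted p could move. *Fcgr1*, *Fcgr2b*, *Trem2*, *Tyrobp* and *Syk* kept their call under each of the 22 alternatives. The highest adjusted p was 0.0471 (limma), that of *Tyrobp* with replicates 1 and 4 alone, where its log2 fold change was -0.10. With quantile normalization the log2 fold change of *Tyrobp* was -0.073 (limma adjusted p = 0.00568). The sign of members that did not pass was not stable. *Fcer1g* turned to 0.00475 with scaling to total reads, 0.00474 with log2(FPKM + 1) and 0.00504 without *Phgdh* fl/fl replicate 4 (leaving out each sample gave -0.030 to 0.00504), and to 0.057 with quantile normalization, where it passed (limma adjusted p = 0.0321). *Fcgr3* turned to -0.019 with replicates 2 and 3 alone and to -0.00737 without *Phgdh* fl/fl replicate 1 (range -0.00737 to 0.045). *Hcst* turned to 0.032 with replicates 2 and 3 alone and to 0.020 without *Phgdh* fl/fl *Cx3cr1*-Cre replicate 4 (range -0.058 to 0.020). *Trem1* turned to -0.044 with replicates 2 and 3 alone, and rose with 0.34 with replicates 1 and 4 alone (limma adjusted p = 0.0476). Leaving out each sample gave 0.079 (without *Phgdh* fl/fl *Cx3cr1*-Cre replicate 1) to 0.23 (without its replicate 2). *Fcgr4* passed with log2(FPKM + 1), at 0.082 (limma adjusted p = 0.0283). With replicates 1 and 4 alone, 15 genes of the lists fell in place of 24. The log2 difference of the *Fcgr4* to *Fcgr2b* ratio was -0.74 in replicates 1 and 4 and -0.66 in replicates 2 and 3, and that of *Trem1* to *Trem2* 0.49 and 0.13. These subsets hold fewer samples, and the cause of the other shifts was not tested.

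The genotypes share replicate numbers in the labels. Deviations of same-numbered samples correlated by 0.063, 0.098, 0.126 and 0.078 for numbers 1 to 4, not over 0.1 in every pair. Numbers 2 and 3 correlated best with their own number (0.075 at most with another), and numbers 1 and 4 did not (0.135 with another). Same-numbered samples were therefore not taken as pairs, although numbers 1 and 4 stood apart from 2 and 3 in both genotypes on the second principal component. With the replicate block, 2 members rose and 3 fell as before, and 2824 genes rose and 2773 fell in all, against 2830 and 2764. For the ratios, a test over 4 pairs cannot go below 0.125.

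Depth limits *Trem1* (at least 186 reads per sample) and *Hcst* (at least 408) most, and other members had at least 1370. Reads shared by close copies limit *Fcgr2b* and *Fcgr3*.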
